A study of Rattus norvegicus with 6 samples.

Results

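The genes described here encode the subunits of the proteasome, its activators, its inhibitor and its assembly chaperones, in rat INS-1 insulinoma lines with and without the genes of the imprinted Prader-Willi syndrome (PWS) domain. They were taken by name, as every row whose symbol starts with Psma, Psmb, Psmc, Psmd, Psme, Psmf or Psmg and a digit, plus Pomp, leaving out the immunoproteasome genes Psmb8, Psmb9 and Psmb10. Of the 47 rows so found, 45 averaged at least 5 normalized counts across the 6 lines and are described, out of 15579 genes that passed the same filter and 32900 features in all. The other 2 were Psma8, a testis form of an alpha subunit that had no read in any line, and Psmb11, a thymus form of a catalytic subunit that had at most 1.82 normalized counts in any line. The name rule also took Psmc3ip, whose product works in meiotic recombination and is no part of the proteasome, so the 45 genes hold 44 proteasome genes. The filter was applied to the mean over both groups, and no other gene was dropped.

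Total RNA, depleted of rRNA, was sequenced from 3 control lines (5-9, 2 and 16) and 3 PWS lines (3, 19-1 and 19-4) of INS-1(832/13)::mCherry cells grown in 7.5 mM glucose. All 6 lines carry the deletion of the domain on the silent maternal allele, together with a human insulin transgene and a mouse Ins2 C-peptide-mCherry reporter, and the PWS lines also lack the domain on the active paternal allele. Control lines 2 and 16 and the PWS lines were isolated after a second transfection of line 5-9, and lines 19-1 and 19-4 are subclones of one line, so the 3 PWS lines stand for fewer independent clones than lines. Line 3 has a larger deletion at its proximal end. Each line gave 1 library of 17530149 to 23022637 reads assigned to a single gene, or 26016478 to 36084261 counts when a read is counted at every gene it fits, the fewest in line 19-1 by both, and p-values below measure the spread between these lines. Reads of the deleted domain matched the labels: Mkrn3 had 77.9 to 89.0 normalized counts in the control lines and no read in any PWS line, which allows up to 2.73 to 3.59 normalized counts, and Snrpn had at least 3149 in each control line and at most 3.64 in each PWS line. The beta cell genes Ins1 and Iapp were high in every line but lower in each PWS line than in any control line. Ins1 averaged 267175 ± 13927 (SD, n = 3) in control and 185453 ± 57529 (SD, n = 3) in PWS lines (log2 fold change -0.57, limma adjusted p = 0.389), and Iapp averaged 217044 ± 26823 (SD, n = 3) and 143222 ± 42235 (SD, n = 3) (log2 fold change -0.64, limma adjusted p = 0.364). Their part in the values below was not tested. Gcg, the alpha cell hormone gene, stood at 19.0, 0 and 13.4 for control lines 5-9, 2 and 16, 15.3 and 13.2 in PWS lines 3 and 19-1, and 100.01 in line 19-4. Of the markers of other cells, Ptprc (leukocytes), Cdh5 (endothelium), Prss1 (acinar cells) and Sst (delta cells) had no read, Cd68 had 27.6 to 34.0 normalized counts in every line, and Ppy, Ghrl, Cela1, Krt19, Col1a1 and Col3a1 had at most 2.85 in any line.

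The proteasome degrades proteins tagged with ubiquitin. Its 20S core is a barrel of alpha subunits, which form the gate, and beta subunits, of which Psmb6, Psmb7 and Psmb5 cut the protein chain. The 19S cap holds ATPases, which unfold the substrate and push it into the barrel, and non-ATPases, which bind and remove ubiquitin. Other activators (Psme1 and Psme2 as the PA28 alpha and beta subunits, Psme3 as PA28 gamma, Psme4 as PA200) can take the place of the cap. In beta cells the proteasome also disposes of misfolded proinsulin drawn out of the endoplasmic reticulum. The transcription factor Nfe2l1 (NRF1) is known to raise subunit genes together when the proteasome is impaired, through antioxidant response elements in their promoters.

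The promoters of the 3 constitutive catalytic subunits, of Psmb2 and of Psme1 are shown because the catalytic genes lead the comparison below and Psmb2 and Psme1 had the lowest and the highest fold change of the 45 genes. RefSeq promoters of assembly GRCr8 were at hand for 41 of the 45 genes, as windows of 250 bases before to 50 bases after the start. The 120 bases before the start are printed, 5′ to 3′ on the strand of the gene, with capitals for matches to TGACNNNGC, the core of the antioxidant response element, or to CCAAT, which binds NF-Y, searched on both strands. In the Psmb2 promoter the 2 motifs overlap.
Psmb2 (chr5:144254938-144255057, plus strand): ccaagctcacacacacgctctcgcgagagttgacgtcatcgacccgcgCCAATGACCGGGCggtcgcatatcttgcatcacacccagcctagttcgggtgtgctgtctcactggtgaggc
Psmb5 (chr15:32047380-32047499, minus strand): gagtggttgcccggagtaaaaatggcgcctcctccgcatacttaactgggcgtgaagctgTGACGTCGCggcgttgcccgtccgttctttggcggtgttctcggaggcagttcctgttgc
Psmb6 (chr10:55737768-55737887, plus strand): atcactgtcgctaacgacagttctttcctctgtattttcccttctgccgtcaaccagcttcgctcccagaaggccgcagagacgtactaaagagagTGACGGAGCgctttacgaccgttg
Psmb7 (chr3:42827471-42827590, minus strand): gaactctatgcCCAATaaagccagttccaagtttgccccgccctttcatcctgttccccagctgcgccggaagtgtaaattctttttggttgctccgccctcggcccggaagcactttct
Psme1 (chr15:33038851-33038970, plus strand): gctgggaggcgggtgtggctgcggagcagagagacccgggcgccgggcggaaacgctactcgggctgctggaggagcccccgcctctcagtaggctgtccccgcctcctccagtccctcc

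The TGACNNNGC match lay 68 to 60 bases before the start in Psmb2, 60 to 52 bases in Psmb5 and 24 to 16 bases in Psmb6. Over the whole window it was found in 8 of the 41 promoters (19.5%), those of Psma3, Psmb2, Psmb5, Psmb6, Psmd1, Psmd3, Psmd9 and Psme4, beside 12.1% of the 33469 promoters in the table. CCAAT was found in 20 of the 41 (48.8%) beside 37.5% of all promoters. The median log2 fold change between PWS and control lines was -0.09 both for the 8 genes with a TGACNNNGC match and for the 33 without one. It was -0.10 for the 20 genes with CCAAT and -0.05 for the 21 without it, with no test of the difference. A match describes the letters only.

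Proteasome genes differed little between PWS and control lines. At a threshold of 0.05 on adjusted p, no member was called by limma (40 of the 15579 genes, 0.257%, were), by edgeR (0.205% of genes) or by DESeq2 (1.46% of genes), and the lowest adjusted p-value of a member was 0.358 in limma. Without adjustment, 2 members had a p-value under 0.05, Psmc4 lower and Psme1 higher, beside 11.3% of all genes in either direction. On average 35 of the 45 genes were lower in PWS lines, beside 50.7% of all tested genes. The median log2 fold change of the 45 was -0.08, a difference of -5.54%, beside a median of 0.00 over all genes, which the scaling of the counts holds near 0. Single lines weighed on these values: without line 19-1 the median was -0.03 with 28 genes lower, and without line 5-9 it was -0.05 with 30 lower. The direction of 16 of the 45 genes turned when some 1 line was left out. The standard errors (SE) were small, with a median of 0.08 on the log2 scale beside 0.12 for all genes. The 95% intervals of all 45 genes lay within a fold of 1.5 in either direction, the widest bounds being a fold of 0.720 and of 1.37, whereas 66.3% of all tested genes had such an interval. Fewer cells of a kind and less RNA per cell cannot be told apart in such bulk libraries.

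**Figure D1:**
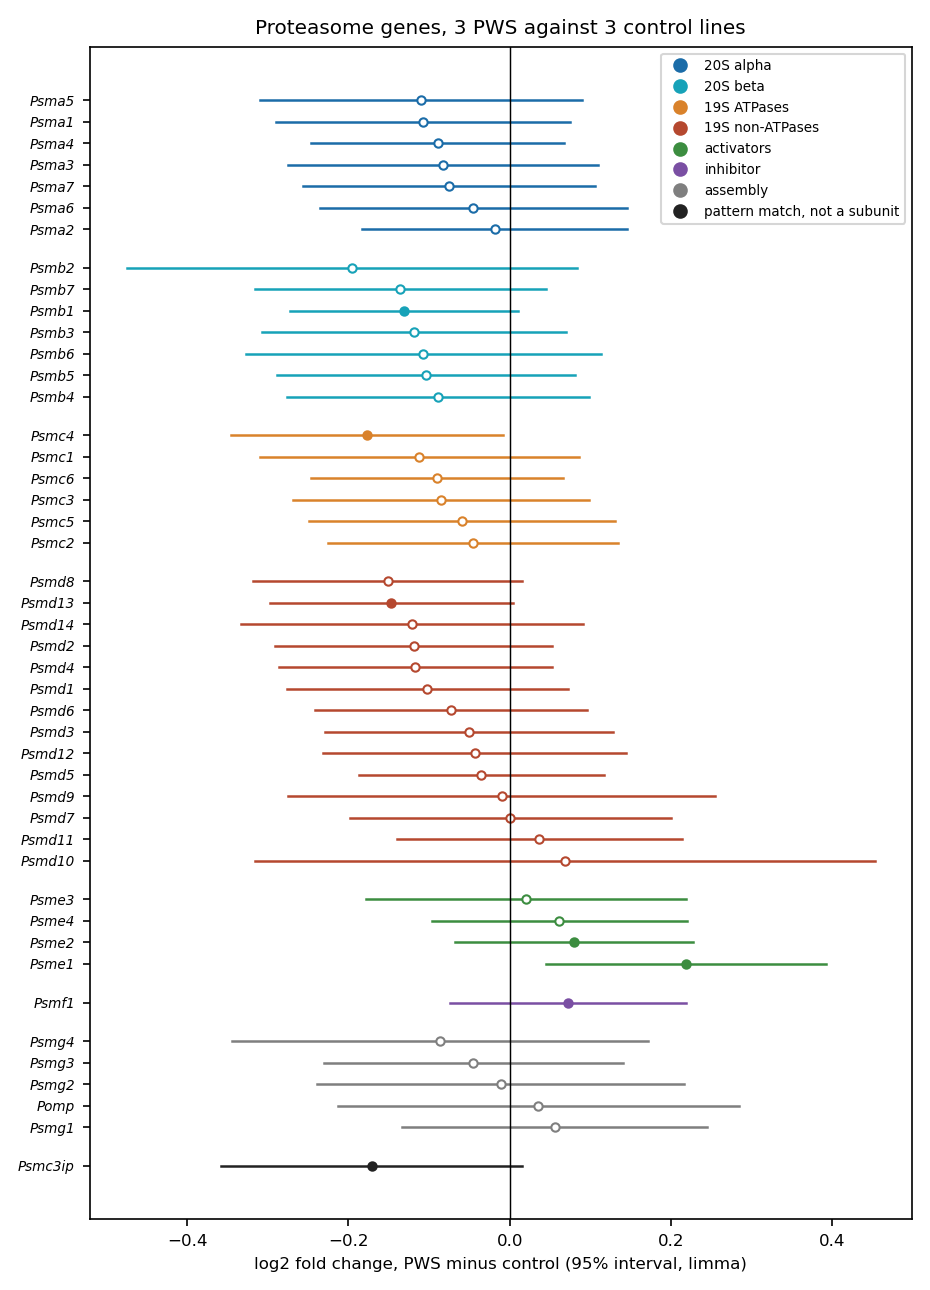
Log2 fold change of each of the 45 genes (PWS minus control lines, 3 lines each) with its 95% interval from limma, on the x axis, by class. Filled points are the 7 genes whose groups do not overlap, and all 20S alpha, 20S beta and 19S ATPase genes lie left of 0 while the 4 activators lie right of it.

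The classes differed in their direction on average. All 7 alpha, all 7 beta and all 6 ATPase genes were lower on average in PWS lines, as were 11 of the 14 non-ATPase genes, with class medians of -0.08, -0.12, -0.09 and -0.06 on the log2 scale. The 4 activators and the inhibitor Psmf1 were higher on average, with a median of 0.07 for the activators, and the 5 assembly genes were split, 3 lower and 2 higher. These are values of each class, with no test of a difference between classes. Classes follow the symbols, so a Psmd gene whose product is an assembly chaperone, such as Psmd10, counts among the 14 non-ATPase genes.

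Among the alpha subunits, Psma5 had the lowest fold change. Lines 5-9, 2 and 16 had 5125, 4787 and 4568 normalized counts of Psma5, and lines 3, 19-1 and 19-4 had 4621, 3995 and 4826. The groups overlapped (log2 fold change -0.11, SE 0.09, limma adjusted p = 0.673), and line 19-1 was the lowest of the 6. The fold change ran from -0.17 to -0.03 with any 1 line left out. Psma2 was nearest to no change, at 5356 ± 339 (SD, n = 3) in control and 5284 ± 221 (SD, n = 3) in PWS lines (log2 fold change -0.02, limma adjusted p = 0.949). It turned to 0.03 without line 5-9 and to 0.01 without line 19-1.

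The catalytic beta subunits were each lower on average in PWS lines, and in each the groups overlapped. Psmb5, which cuts after hydrophobic residues, stood at 2717, 2656 and 2415 in control lines 5-9, 2 and 16 and 2595, 2237 and 2417 in PWS lines 3, 19-1 and 19-4 (log2 fold change -0.10, SE 0.08, limma adjusted p = 0.668). Psmb6, which cuts after acidic residues, had 2780, 2636 and 2546 in control lines and 2819, 2200 and 2407 in PWS lines, so that line 3 was the highest of all 6 and line 19-1 the lowest (log2 fold change -0.11, adjusted p = 0.716). Psmb7, which cuts after basic residues, had 6667, 6693 and 6016 in control lines and 6020, 5418 and 6209 in PWS lines (log2 fold change -0.14, adjusted p = 0.558). With any 1 line left out, the fold change ran from -0.16 to -0.05 for Psmb5, from -0.20 to -0.03 for Psmb6 and from -0.19 to -0.08 for Psmb7. Only 68.4% of the Psmb5 reads and 54.3% of the Psmb7 reads were unique to the gene, beside 87.4% for Psmb6.

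Of the other beta subunits, Psmb2 had the lowest fold change of all members, at -0.20 (SE 0.12, limma adjusted p = 0.583). Control lines 5-9, 2 and 16 gave 4362, 5552 and 3926 normalized counts of Psmb2, and PWS lines 3, 19-1 and 19-4 had 4159, 3740 and 4069. The high value of control line 2 carried much of the difference, which was -0.05 without that line. Psmb4, a subunit with no cutting site, had the smallest change of the class, at -0.09. Psmb1 was the one beta gene whose groups did not overlap, at 5899 to 6324 normalized counts in control and 5480 to 5732 in PWS lines (log2 fold change -0.13, SE 0.06, adjusted p = 0.474).

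The ATPase Psmc4 stood at 3221, 3109 and 2962 in control lines 5-9, 2 and 16 and 2950, 2584 and 2690 in PWS lines 3, 19-1 and 19-4. The groups did not overlap, but control line 16 and PWS line 3 were close to each other. Its log2 fold change of -0.18 (95% interval -0.35 to -0.01) had an unadjusted p of 0.0414 and an adjusted p of 0.427 in limma. Psmc2 had the smallest change of the class, at -0.05, and it was 0.02 without line 19-1. The other 4 ATPases lay between -0.11 and -0.06.

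Psmd8 and Psmd13, scaffold subunits of the 19S lid, were the lowest of the non-ATPases. Psmd8 stood at 3614, 3587 and 3195 in control lines and at 3242, 3006 and 3102 in PWS lines, where line 16 lay among the PWS lines (log2 fold change -0.15, SE 0.07, limma adjusted p = 0.483). In Psmd13 the groups did not overlap, with 3792 to 3935 normalized counts in control and 3275 to 3643 in PWS lines. Psmd2, a large subunit of the base that binds ubiquitin-like domains, was 14883 ± 808 (SD, n = 3) in control and 13701 ± 677 (SD, n = 3) in PWS lines, with overlapping groups. At the other end, Psmd10 (gankyrin, a chaperone of base assembly) was 109 ± 19.9 (SD, n = 3) in control and 114 ± 7.42 (SD, n = 3) in PWS lines, and its log2 fold change of 0.07 turned to -0.03 without line 16. Psmd10 was the member with the widest interval, -0.32 to 0.45.

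The PA28 subunits stood on the other side of 0 from the 20S genes. Psme1 was measured at 1139, 1115 and 1083 normalized counts for control lines 5-9, 2 and 16 and 1198, 1350 and 1340 in PWS lines 3, 19-1 and 19-4. All PWS lines were above all control lines, and the log2 fold change was 0.22 (95% interval 0.04 to 0.39, SE 0.08), which is 16.5% higher on the means. Its unadjusted p was 0.0198, the adjusted p was 0.358 in limma, 0.330 in edgeR and 0.336 in DESeq2, and the fold change lay between 0.19 and 0.27 with any 1 line left out. Psme2, whose product pairs with that of Psme1 in the ring and whose gene stands near Psme1 in the reference table, had 1114, 1104 and 1092 normalized counts in control and 1156, 1171 and 1172 in PWS lines. These groups did not overlap either, with narrow spreads, but the difference was small, at 0.08 (adjusted p = 0.680 in limma). Irf1, Irf9, B2m and Tap1, which like PA28 are induced by interferon, were all 4 lower on average in PWS lines. Tap1, a peptide transporter, was the 1 of them without overlap, at 374 to 617 normalized counts in control and 219 to 281 in PWS lines. Its log2 fold change was -0.91, with an adjusted p of 0.222 in limma and 0.00108 in DESeq2, in the opposite direction to that of Psme1. Their part in the PA28 values was not tested.

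Psme4 was 7464 ± 206 (SD, n = 3) in control and 7797 ± 459 (SD, n = 3) in PWS lines, with overlapping groups. Psme3 was 0.02 on the log2 scale, with 39.9% unique reads, and it was -0.04 when reads shared with other genes were not counted. Psmf1 (PI31) lay at 1600 to 1638 normalized counts in control and 1657 to 1767 in PWS lines, without overlap, and a log2 fold change of 0.07 (adjusted p = 0.710 in limma).

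**Figure D2:**
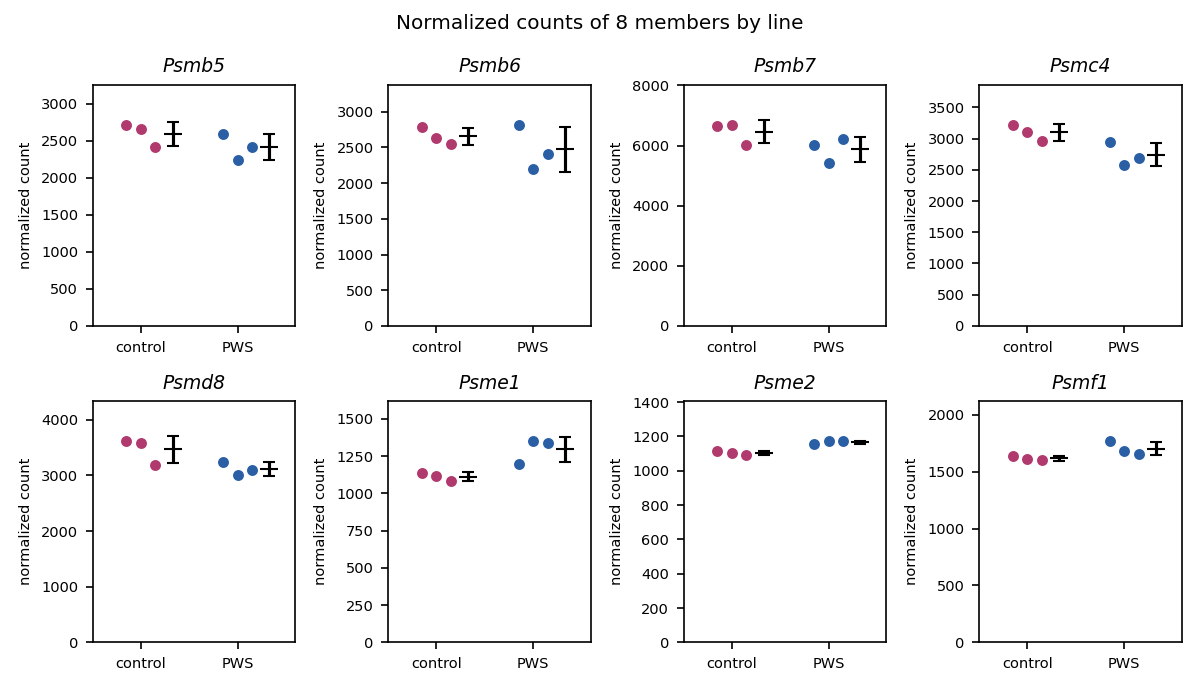
Normalized counts of 8 members in the 3 control and 3 PWS lines (points, in the order 5-9, 2, 16 and 3, 19-1, 19-4) with the mean and SD (black, n = 3), on y axes that start at 0. Psme1 and Psme2 are higher in every PWS line and Psmc4 is lower in every PWS line, all by a small part of their level.

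Of the assembly genes, Psmg4 had the lowest fold change, -0.09, and Psmg1 the highest, 0.06, which was -0.01 without control line 2. With any 1 line left out, that of Psmg4 ran from -0.17 to -0.02. Pomp, which helps the barrel assemble, had 6378, 6346 and 6303 normalized counts in control and 6241, 5682 and 7751 in PWS lines, so that the PWS lines lay on both sides of the control lines (log2 fold change 0.04, adjusted p = 0.932 in limma). Its value belongs to shared reads, since 0.0674% of them were unique to Pomp. Psmc3ip, which the name rule took, had 636 to 666 normalized counts in control and 555 to 612 in PWS lines, without overlap.

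In total the groups did not overlap in 7 of the 45 genes (15.6%), 4 of them lower (Psmc4, Psmb1, Psmd13 and Psmc3ip) and 3 higher (Psme1, Psme2 and Psmf1) in PWS lines. Over all tested genes 17.4% did not overlap, 9.01% lower and 8.43% higher, so the share among the 45 genes was close to the background. Which genes are in the count depended on the lines. Without control line 16, 21 genes (46.7%) did not overlap, 18 of them lower, where 29.0% of all genes did not. With any other line left out, 8 to 13 genes (17.8% to 28.9%) did not overlap, beside 25.4% to 30.6% of all genes.

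The 20S and 19S genes varied together from line to line, also among lines of the same group. With the control mean as zero, the median of the 45 genes was 0.06, 0.00 and -0.06 on the log2 scale in control lines 5-9, 2 and 16 and -0.02, -0.16 and -0.04 in PWS lines 3, 19-1 and 19-4. The median of all tested genes was 0.00 in each line, near which the scaling of the counts holds it. Line 19-1, the library with the fewest reads, had the lowest value of 28 of the 34 genes of the 20S and 19S classes (19.2% of all genes were lowest there). Line 5-9 had the highest of 22 of the 34 (12.3% of all genes). All 34 were lower in control line 16 than in control line 5-9, with a median difference of -0.16. Between the sister subclones, 32 of the 34 were lower in 19-1 than in 19-4, with a median difference of -0.11. The other pairs within a group had medians of -0.05 (line 2 minus 5-9), 0.09 (2 minus 16), 0.14 (3 minus 19-1) and 0.00 (3 minus 19-4). Over the same 34 genes the median fold change of PWS against control lines was -0.09, a difference between means of 3 lines, which vary less than single lines. The part of depth in the low values of line 19-1 was not tested. Over the 6 lines the mean correlation between 2 of the 34 genes was 0.64, and it was 0.63 after subtracting each group's mean. Over all pairs of tested genes the mean was 0.00, a mean in which positive and negative correlations cancel. The 34 genes come from the same 6 libraries, so their correlation is a description.

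**Figure D3:**
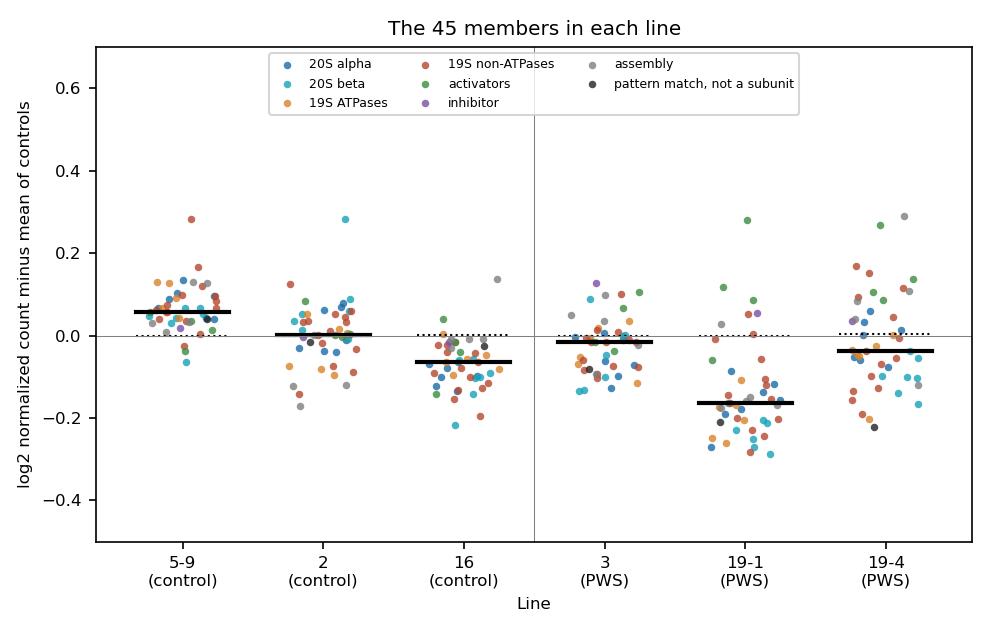
Log2 normalized count of each of the 45 genes in each line minus the mean of the control lines (y axis), coloured by class, with the median of the 45 genes (solid bar) and of all tested genes (dotted bar). The solid bars run from 0.06 in line 5-9 to -0.16 in line 19-1, and the dotted bars lie at 0.00.

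The summed share of the 45 genes overlapped between the groups. It was 0.517% ± 0.0322 (SD, n = 3) of the normalized counts with control and 0.510% ± 0.0264 (SD, n = 3) with PWS lines when reads are counted at every gene they fit. When shared reads are left out, it was 0.732% ± 0.0407 (SD, n = 3) and 0.702% ± 0.0311 (SD, n = 3), a wider gap, with ranges of 0.686% to 0.765% and 0.667% to 0.724% that still overlapped. Control lines 5-9 and 16 stood at the ends of the control range with both ways of counting.

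The immunoproteasome genes Psmb8, Psmb9 and Psmb10, whose products replace those of Psmb5, Psmb6 and Psmb7 after interferon, were compared with these as log2 ratios of normalized counts + 1. The ratio of Psmb8 to Psmb5 was -4.51, -3.31 and -4.02 in control lines 5-9, 2 and 16 and -5.25, -4.64 and -5.38 in PWS lines 3, 19-1 and 19-4. Every PWS line was lower, by a mean of -1.14, with an exact two-sided permutation p = 0.1, the smallest that 3 lines against 3 allow, and 0.3 after adjustment over the 3 ratios. The difference came from Psmb8, at 178 ± 78.6 (SD, n = 3) in control and 71.0 ± 15.9 (SD, n = 3) in PWS lines (log2 fold change -1.25). Psmb5 was lower as well, at -0.10, which made the gap in the ratio smaller. Of the Psmb8 reads, 42.0% were unique to the gene. The ratio of Psmb9 to Psmb6 was -4.45 ± 0.601 (SD, n = 3) in control and -5.11 ± 0.414 (SD, n = 3) in PWS lines, with overlapping groups (exact permutation p = 0.2, adjusted p = 0.3). The ratio of Psmb10 to Psmb7 was -3.15 ± 0.243 (SD, n = 3) and -3.00 ± 0.256 (SD, n = 3), again with overlap (exact permutation p = 0.5, adjusted p = 0.5).

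**Figure D4:**
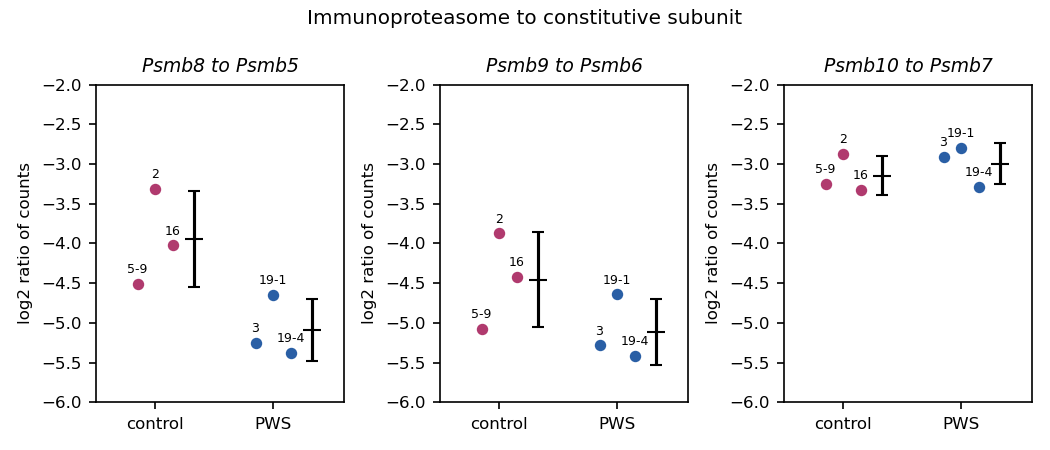
Log2 ratio of normalized counts + 1 of each immunoproteasome gene to the constitutive subunit it replaces, by line (labelled points), with the mean and SD (black, n = 3). The 3 PWS lines lie below the 3 control lines for Psmb8 to Psmb5 alone.

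Genes around the proteasome were taken from a list of 36 names, of which Paaf1 matched no row and Rps27a matched 2, so that 36 rows were found and 35 tested. At an adjusted p-value of 0.05 none was called by limma or edgeR, and 1 of the 35 (2.86%), Psmb8, by DESeq2 (adjusted p = 0.0076), beside 0.257%, 0.205% and 1.46% of all genes with these tools. With shared reads left out, the limma adjusted p of Psmb8 went from 0.272 to 0.368. Without adjustment, 1 of the 35 genes was higher and 3 lower at a p-value under 0.05 in limma, together 11.4% beside 11.3% of all genes. On average 19 of the 35 (54.3%) were lower, beside 50.7% of all genes, with a median of 0.00, so both shares were close to the background.

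Among the regulators, Nfe2l1 had 2750, 2490 and 2582 normalized counts in control and 2983, 2916 and 2754 in PWS lines. The PWS lines were all above the control lines, the nearest of them by little, at a log2 fold change of 0.15 (SE 0.07, limma adjusted p = 0.471). Of the 34 genes of the 20S and 19S classes, 31 (91.2%) were lower on average, beside 50.7% of all genes. The part of Nfe2l1 in these values was not tested. Vcp, the ATPase that extracts ubiquitinated proteins, had 25648, 33096 and 25259 in control and 24173, 22192 and 22883 in PWS lines, without overlap (log2 fold change -0.27, unadjusted p = 0.0446, adjusted p = 0.432 in limma). Control line 2 stood above the others, and without it the value was -0.14. Ube3a, a ubiquitin ligase outside the deleted genes, had the highest change of the regulators, 0.16, with overlapping groups.

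Of the shuttle factors, which carry ubiquitinated proteins to the cap, Ubqln2 had 1651, 2245 and 1794 normalized counts in control and 2212, 2688 and 2490 in PWS lines. The groups overlapped through control line 2, and the log2 fold change was 0.38 (SE 0.12, unadjusted p = 0.0135, limma adjusted p = 0.333). Rad23b had the lowest, -0.16. Of the ubiquitin genes, Ubb had the lowest, -0.19, with 46.1% unique reads. Sem1, Adrm1, Usp14 and Uchl5, which are subunits or partners of the cap without a Psm name, lay between -0.07 and 0.05.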

How the data were processed

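After trimming with cutadapt, the authors aligned reads with STAR 2.7.0e to the Ensembl rat genome plus custom features and counted them with HTSeq 0.11.2 or RSEM 1.3.1. The deposited values are a signal: counts divided by DESeq2 size factors, called normalized counts here. They were recovered as whole reads for 100% of the values of both HTSeq tables (tolerance 0.01), not for RSEM. The main table counted reads at every gene they fit (nonunique all), so paralogues share reads. The authors' own fold changes and p-values were deposited too and not used. The 15579 genes were compared with limma 3.58.1 (lmFit, eBayes with trend) on log2(normalized count + 1), with Benjamini-Hochberg adjustment over all of them, a threshold of 0.05 and no replicate block, with edgeR 4.0.16 and DESeq2 1.42.0 on recovered reads as alternatives. This scale understates the change of low genes. The fits were tested on simulated data before use. With no change simulated, DESeq2 called 5 genes, and limma and edgeR called 0. With changes simulated, DESeq2 made 42 false calls, limma 16 and edgeR 18. Named genes are the highest and lowest of each class by fold change, the catalytic subunits, Pomp and those with an unadjusted p under 0.05. Others named, such as those whose groups do not overlap, Psmd2, Psme4 and the interferon genes, were added after their values were seen. The members and lists were chosen with earlier results of these data known. Proteins, small RNA and the annotation file were not analysed here. For some lists a gene that the rule or the list holds is not reported here.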

Additional observations from a re-analysis of the deposited data

How the results depend on the processing

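No member passed the threshold under any of the alternatives run (edgeR, DESeq2, other pseudocounts and filters, TMM scaling, RSEM, nonunique none counting, eBayes without trend, any 1 line left out, the replicate block, lines 19-1 and 19-4 averaged, an adjusted p under 0.1). The median of the members stayed below 0, from -0.11 to -0.03 with 1 line left out, the nearest to 0 being -0.03 without line 19-1 and -0.05 without line 5-9. Genes whose groups did not overlap numbered 7, 6 with TMM scaling (17.4% of all genes), 5 in RSEM (17.2% of all genes), and 8 to 21 with 1 line left out (25.4% to 30.6% of all genes). They were 21 (46.7%, beside 29.0% of all genes) without control line 16, 12 (26.7%, beside 30.6%) without PWS line 3 and 13 (28.9%, beside 26.4%) without PWS line 19-4. Pathway genes past the threshold numbered 0, and 1 (Psmb8) in DESeq2. Leaving out 1 line turned the direction of 16 members. Among the genes named by the rule these were Psma2 (-0.051 to 0.033), Psmc2 (-0.087 to 0.018), Psmg1 (-0.0055 to 0.12), Psmd10 (-0.029 to 0.21), Psme3 (-0.050 to 0.062) and Pomp (-0.091 to 0.13), and the other 10 were Psma6, Psmc5, Psmd3, Psmd5, Psmd7, Psmd9, Psmd11, Psmd12, Psmg2 and Psmg3. Nonunique none counting gave -0.043 for Psme3. The cause was not tested beyond the lines named. Samples with the same replicate number deviated with correlations of 0.00 to 0.05, so the numbers pair no samples, and with the replicate block 0 members passed. With nonunique none counting Pomp was under the filter, which left 44 members. Psmd10, the member with the fewest counts, had the widest interval.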
